A study of Mus musculus with 6 samples.

Results

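The 34 genes described here encode the contractile, calcium-handling and energy-supplying proteins of fast skeletal muscle. They were measured in pooled B16F10 melanoma tumours. Members were chosen by symbol, and the count table held all 34 among its 43629 genes. RNA came from tumours of the mouse melanoma line B16F10, grown under the skin of female C57BL/6J mice aged 8 weeks. Treatment began once tumours had a blood supply and was given daily until the control tumours reached 2000 mm3. The control mice received DMSO, the solvent, with a control IgG, and the anti-PD-1 mice received DMSO with an antibody that blocks PD-1, an inhibitory receptor of T cells. The AZD5363+MK1775 mice received these inhibitors of the kinases AKT and WEE1 with control IgG, and the AZD5363+MK1775+anti-PD-1 mice received them with the antibody. The KS100 mice received this inhibitor of aldehyde dehydrogenases with control IgG, and the KS100+anti-PD-1 mice received it with the antibody. Per the series' design text, tumours were pooled ahead of RNA extraction, with 1 library for each of the 6 treatments, and the number of mice behind a pool is not given in the sources used here. No comparison of 1 pool with another had a replicate check, and every interval below is a 95% exact interval that covers counting error only. The pools are called control, antibody-alone, kinase-inhibitor, triple-agent, KS100 and KS100-antibody below, in this order of treatments, and counts given without pool names follow this order.

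Skeletal muscle fibres shorten when thick filaments of myosin pull on thin filaments of actin, held in register by titin, nebulin and the proteins of the Z disc. Calcium released from the sarcoplasmic reticulum starts the cycle by binding troponin, and creatine kinase, glycogen breakdown and glycolysis supply the ATP. Fast and slow fibres use different members of the same gene families, and tumours injected under the skin of mice lie close to a thin sheet of fast muscle, the panniculus carnosus.

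The sequence before the start site is shown for Myh4, Ttn, Acta1 and Ckm, the genes taken as markers of muscle, because muscle genes are known to share short motifs there. Myh4 (ENSMUSG00000057003) lies at chr11:67238029-67260446, Ttn (ENSMUSG00000051747) at chr2:76703980-76982547, Acta1 (ENSMUSG00000031972) at chr8:123891769-123894751 and Ckm (ENSMUSG00000030399) at chr7:19404776-19422841, all in GRCm38 with GENCODE M21. Each line gives the 250 bases before the RefSeq start site in GRCm38.p6, 5′ to 3′ on the gene's strand, with matches to an E-box (CAGCTG, bound by the MyoD family), a CArG box (bound by serum response factor) or a MEF2 site in capitals.
Myh4 (chr11:67237562-67237811, plus strand): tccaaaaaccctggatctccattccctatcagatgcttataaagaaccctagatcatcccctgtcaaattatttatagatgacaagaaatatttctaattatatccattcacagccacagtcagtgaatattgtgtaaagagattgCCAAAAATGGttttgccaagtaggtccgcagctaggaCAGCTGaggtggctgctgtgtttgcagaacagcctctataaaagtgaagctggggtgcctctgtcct
Ttn (chr2:76982548-76982797, minus strand): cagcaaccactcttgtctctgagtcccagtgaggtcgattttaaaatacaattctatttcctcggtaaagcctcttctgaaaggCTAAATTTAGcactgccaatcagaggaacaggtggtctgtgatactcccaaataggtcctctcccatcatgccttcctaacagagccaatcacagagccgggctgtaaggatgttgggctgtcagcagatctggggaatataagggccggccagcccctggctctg
Acta1 (chr8:123894776-123895025, minus strand): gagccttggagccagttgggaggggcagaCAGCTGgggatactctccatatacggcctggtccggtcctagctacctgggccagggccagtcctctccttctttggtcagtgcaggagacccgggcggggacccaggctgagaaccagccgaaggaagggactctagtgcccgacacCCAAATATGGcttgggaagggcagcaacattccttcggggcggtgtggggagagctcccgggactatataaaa
Ckm (chr7:19410844-19411093, plus strand): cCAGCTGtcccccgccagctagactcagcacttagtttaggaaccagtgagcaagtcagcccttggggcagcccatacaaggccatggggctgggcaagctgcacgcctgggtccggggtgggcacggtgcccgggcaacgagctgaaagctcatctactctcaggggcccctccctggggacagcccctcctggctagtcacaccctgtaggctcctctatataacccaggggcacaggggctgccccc
The 3 motifs read the same on both strands, so 1 search covered both, and none overlaps another in these sequences. The set of RefSeq start sites used here held this window for 26 of the 34 members and for 27025 genes in all. It had no entry for Trdn, Tnnt3, Myot, Neb, Actn3, Tcap, Tnni2 and Myoz1. An E-box CAGCTG was found in 13 of the 26 members (50%) against 14.7% of all genes, and a CArG box in Acta1, Ldb3 and Myh4, or 11.5% against 1.62%. A MEF2 site was found in Ttn and Xirp2, or 7.69% against 0.592%. A match describes letters in the window, not a site in use.

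The 34 muscle genes took a larger share of counts with anti-PD-1 than without it in each arm, though on few counts with KS100. Their largest share was in the triple-agent pool. Summed over the 34 genes, the control pool held 179 counts, the antibody-alone pool 1084, the kinase-inhibitor pool 0, the triple-agent pool 3795, the KS100 pool 19 and the KS100-antibody pool 35. As a share of all gene counts this was 0.0112% (0.00966 to 0.0130) in the control pool and 0.108% (0.102 to 0.115) in the antibody-alone pool. The triple-agent pool held 1.12% (1.09 to 1.16), the highest share of the 6, and its partner without antibody held none, with an upper limit of 0.0138% (3 counts would be 0.0113%). The KS100 pool held 0.0425% (0.0256 to 0.0663) and the KS100-antibody pool 0.137% (0.0955 to 0.191). In each of the 3 arms (DMSO, AZD5363+MK1775 and KS100) the share was thus higher with antibody than with control IgG. The intervals within an arm did not overlap. The KS100 arm rests on 19 and 35 counts. The rate of genes unseen in the control and antibody-alone pools, given below, would put 20.1 and 23.5 there. By this rate, that arm alone does not show a clear rise of muscle transcripts. The reading depends on a rate by exon length, which is rough, and other rates were not tried. In bulk RNA, fewer muscle cells and less RNA per muscle cell cannot be told apart.

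**Figure D1:**
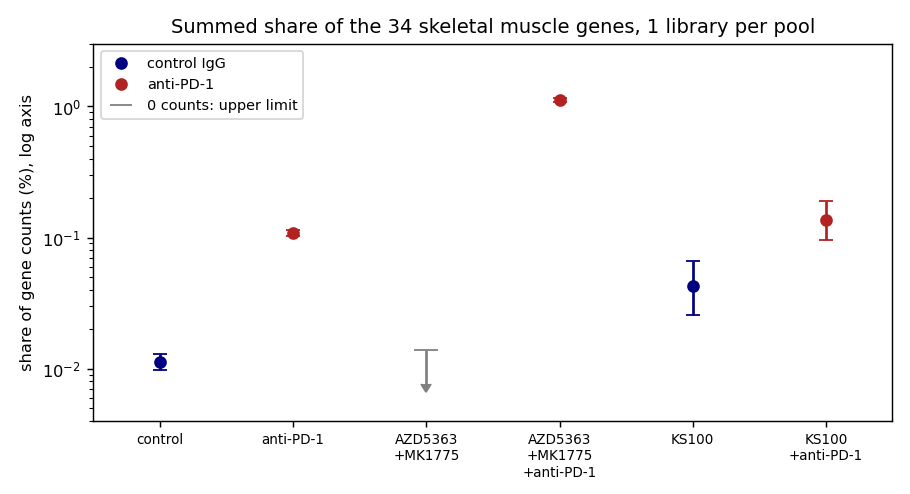
Share of gene counts held by the 34 muscle genes together (%, log axis) in each pool, 1 library each. Points give the share and bars the 95% exact binomial interval, blue for control IgG and red for anti-PD-1, and the grey mark with an arrow is the upper limit of that interval (0.0138%) for the pool with 0 counts; the triple-agent pool stands highest at 1.12%.

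The pools differed widely in depth and makeup, which bears on every value below. Totals were 1591673 counts in the control pool, 1002088 in the antibody-alone pool and 338474 in the triple-agent pool, but 26639, 44748 and 25521 in the kinase-inhibitor, KS100 and KS100-antibody pools. In the shallow pools 3 counts amount to 113, 67.0 and 118 CPM, counts scaled to a library total of 1000000, so most muscle genes could not be seen there at the level of the antibody-alone pool. Ribosomal RNA, taken as mt-Rnr1, mt-Rnr2 and Gm42418 only, held 27.4% of counts in the triple-agent pool against 0.0567% to 5.01% in the others. Mitochondrial genes took 13.2% to 19.8% in the inhibitor pools against 1.29% and 1.89%. These shares overlap, since mt-Rnr1 and mt-Rnr2 are mitochondrial genes and count in both. The label of a melanoma was checked on 10 pigment cell genes, of which 9 or 10 had counts in every pool, at 2.48% of counts in the control pool and 0.278% in the KS100-antibody pool at the extremes. At the control pool's share, the kinase-inhibitor library would have held 3 muscle counts in all, the KS100 library 5.03 and the KS100-antibody library 2.87. At the share of the triple-agent pool, the kinase-inhibitor library would have held 299 where it held 0. The part of depth and of the ribosomal RNA content in the muscle values was not tested.

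Between 2 pools, genes that reached 20 counts in either were compared. A gene was called higher or lower where its ratio, scaled by the trimmed mean of M-values (TMM), was at least 2 in either direction and its interval lay wholly beyond 1.5-fold. In the antibody-alone pool against control, 12 of the 34 muscle genes reached that minimum and 11 were called higher and none lower, where 2.69% of the 8119 genes tested were higher and 2.14% lower. Of those 12, only Acta1 and Eno3 reached 20 counts in the control pool, so the others entered through the pool where they were high and their number describes these libraries only. Over all 34 members, minimum or not, 32 had a ratio above 1 and 2 (Tmod4 and Cacna1s) had no count in either pool, while 52.5% of the 14412 genes with a count in either pool had a ratio above 1. The summed muscle counts were 9.35-fold (7.98 to 11.0) higher in the antibody-alone pool than in control. The median log2 ratio was 3.38 over the 12 muscle genes and -0.0037 over all genes tested.

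In the triple-agent pool against control, 21 muscle genes reached the minimum and all 21 were called higher, where 14.9% of the 8059 genes tested were higher and 8.02% lower. Again Acta1 and Eno3 alone reached 20 counts in control. All 34 members had a ratio above 1, as did 55.7% of the 15157 genes with a count in either pool. The summed ratio was 161 (139 to 188), and 99.7 (85.8 to 116) when scaled by library totals, since the TMM factor of this pool was 0.675. The median log2 ratio was 7.90 over the 21 muscle genes and -0.0076 over all genes tested. In the kinase-inhibitor, KS100 and KS100-antibody pools only Acta1 and Eno3 could be compared with control, through the control counts. Neither was called in any of them. The upper limits of the ratio were 4.09, 3.39 and 6.51 for Acta1, at 0 counts in each, and 5.37, 4.46 and 13.1 for Eno3. These depths thus left no room for a call of lower. Of all genes, 1.65%, 4.50% and 4.59% were called higher in these pools and 1.28%, 1.86% and 2.86% lower, in that order.

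**Figure D2:**
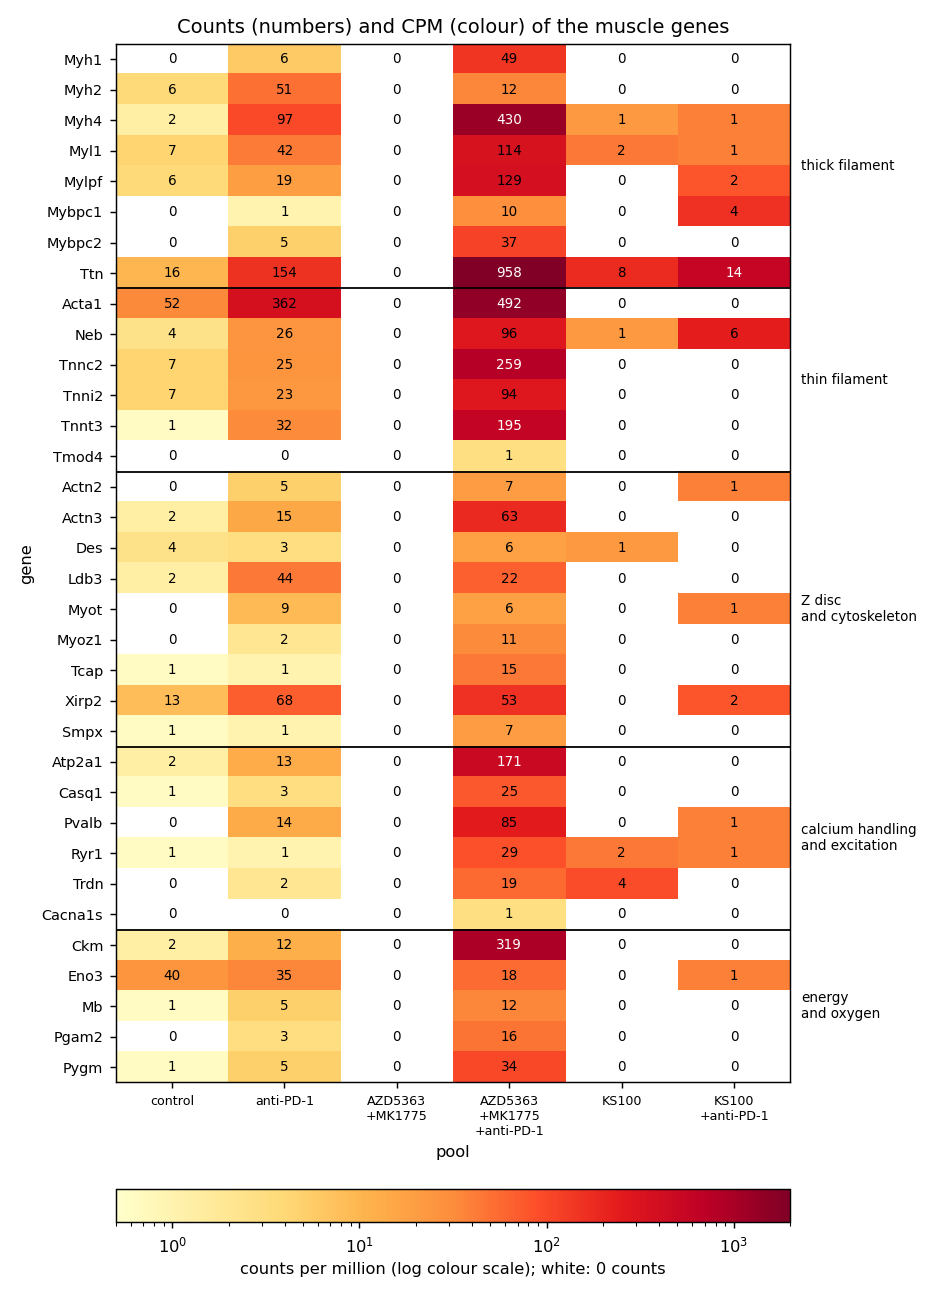
Each of the 34 genes (rows, grouped by role) in each of the 6 pools (columns), with the deposited count as a number and CPM as colour on a log scale; white marks 0 counts. The kinase-inhibitor column is 0 throughout, the triple-agent column has a count for all 34 genes, and the KS100 columns hold counts for 7 and 12 genes.

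The thick filament genes encode the myosin motor, its light chains and the proteins that organise it. Myh4, the heavy chain of the fastest fibres (type IIb), had 2 counts in control, 97 in the antibody-alone pool, 0 in the kinase-inhibitor pool, 430 in the triple-agent pool, and 1 in each KS100 pool. The antibody-alone pool and the triple-agent pool alone held more than 2 counts. On 2 control counts, the ratio to control was 74.9 (20.2 to 627) in the antibody-alone pool and 1633 (449 to 13529) in the triple-agent pool. Ttn, titin, the giant spring that spans the sarcomere from Z disc to M line, had 16, 154, 0, 958, 8 and 14 counts in the same order of pools. It was the member with the most counts in the triple-agent pool and the one member above 6 counts in either KS100 pool. Relative to control it stood at 14.9 (8.87 to 26.7) in the antibody-alone pool and 455 (279 to 799) in the triple-agent pool.

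Myh2, the heavy chain of type IIa fibres, had 6 counts in control, 51 in the antibody-alone pool and 12 in the triple-agent pool, and 0 elsewhere. Among Myh1, Myh2 and Myh4 it had the fewest counts in the triple-agent pool, although it was second to Myh4 in the antibody-alone pool. Relative to control it stood at 13.1 (5.63 to 37.4) in the antibody-alone pool, and with 12 counts it fell short of the minimum in the other. Myh1, the type IIx heavy chain, had 0, 6, 0, 49, 0 and 0 counts, and was at least 124-fold higher than control in the triple-agent pool (against 3 control counts). The 3 heavy chain genes lie side by side on chromosome 11 and are near-identical in places, so reads may have been split between them. Myl1, an essential light chain, rose from 7 control counts to 42 and 114 in the antibody-alone and triple-agent pools, or 9.27-fold (4.12 to 24.4) and 124-fold (58.1 to 315). Mylpf, the fast regulatory light chain, had 6, 19 and 129 counts in these 3 pools and was 163-fold (73.0 to 453) higher in the triple-agent pool. The myosin-binding proteins were low, Mybpc2 of fast fibres with 0, 5, 0, 37, 0 and 0 counts and Mybpc1 of slow fibres with 0, 1, 0, 10, 0 and 4.

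The thin filament genes encode actin, its ruler nebulin and the calcium-sensing troponins. Acta1, skeletal muscle actin, had 52 counts in control, 362 in the antibody-alone pool, 0 in the kinase-inhibitor pool, 492 in the triple-agent pool and 0 in both KS100 pools. It was the member with the most counts in the control and antibody-alone pools, yet at 0 in the KS100 libraries, where Ttn was seen. Relative to control it stood at 10.8 (8.02 to 14.7) in the antibody-alone pool and 71.9 (53.9 to 97.6) in the triple-agent pool. At the antibody-alone pool's level, 16.2 and 9.22 Acta1 counts would have been seen in the KS100 and KS100-antibody libraries, and at the control level 1.46 and 0.834. Acta1 shares much of its coding sequence with the other actin genes, and its single values are uncertain for that reason.

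Tnnt3, Tnni2 and Tnnc2 are the fast forms of troponin T, I and C, which together bind calcium and free the thin filament for myosin. Tnnt3 had 1, 32, 0, 195, 0 and 0 counts, Tnni2 7, 23, 0, 94, 0 and 0, and Tnnc2 7, 25, 0, 259, 0 and 0. All 3 were higher than control in the antibody-alone pool, Tnnt3 49.4-fold (8.26 to 2012) on 1 control count, Tnni2 5.07-fold (2.11 to 14) and Tnnc2 5.52-fold (2.32 to 15.1). In the triple-agent pool the ratios were 1481 (263 to 58805), 102 (47.6 to 261) and 281 (134 to 706). Neb, nebulin, had 4, 26, 0, 96, 1 and 6 counts and ratios to control of 10.04 (3.48 to 39.6) and 182 (68.9 to 683) in these pools. Tmod4, which caps the pointed end of the thin filament, had a single count, in the triple-agent pool.

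The Z disc genes were the role with the smallest gap between the antibody-alone pool and the triple-agent pool. Ldb3, also called ZASP, a Z disc scaffold, had 2 counts in control, 44 in the antibody-alone pool, 22 in the triple-agent pool and 0 elsewhere. Xirp2, which binds actin where fibres are under strain or repair, had 13, 68, 0, 53, 0 and 2 counts. Both were thus higher than control in each of these pools: Ldb3 34-fold (8.86 to 289) and 83.6-fold (20.5 to 733), Xirp2 8.08-fold (4.42 to 15.9) and 31.0-fold (16.7 to 61.9). Actn3, the alpha-actinin of fast fibres, had 2, 15, 0, 63, 0 and 0 counts, and was called against control in the triple-agent pool alone, 239-fold (63.6 to 2019) higher. The other 6 stayed under 20 counts in every pool. Myoz1 (0, 2, 0, 11, 0 and 0), Tcap (1, 1, 0, 15, 0 and 0) and Smpx (1, 1, 0, 7, 0 and 0) had most of their counts in the triple-agent pool. Actn2 (0, 5, 0, 7, 0 and 1) and Myot (0, 9, 0, 6, 0 and 1) were spread over both. Des, desmin, the intermediate filament of all muscle types, had 4, 3, 0, 6, 1 and 0 counts.

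The calcium genes cover the path from the surface signal to calcium release and reuptake. Atp2a1, the calcium pump SERCA1 of fast fibres, had 2 counts in control, 13 in the antibody-alone pool, 171 in the triple-agent pool and 0 elsewhere. Pvalb, parvalbumin, a calcium buffer of fast fibres, had 0, 14, 0, 85, 0 and 1. In both genes the triple-agent pool held most of the counts. Against control it was 649-fold (177 to 5406) higher for Atp2a1 and at least 215-fold higher for Pvalb. Ryr1, the release channel, had 1, 1, 0, 29, 2 and 1 counts and a ratio of 220 (36.5 to 8997), and Casq1, the store's calcium-binding protein, had 1, 3, 0, 25, 0 and 0 and a ratio of 190 (31.1 to 7797). Trdn, triadin, which anchors calsequestrin to the release channel, had 0, 2, 0, 19, 4 and 0 counts. Cacna1s, the voltage sensor, had a single count, in the triple-agent pool.

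Among the energy genes, Ckm and Eno3 behaved differently. Ckm, muscle creatine kinase, which buffers ATP with phosphocreatine, had 2 counts in control, 12 in the antibody-alone pool, 319 in the triple-agent pool and 0 in the other 3. Relative to control it stood at 9.27 (2.06 to 85.2) in the antibody-alone pool, where it was under the minimum, and 1212 (333 to 10048) in the triple-agent pool. Eno3, the muscle form of the glycolytic enzyme enolase, had 40, 35, 0, 18, 0 and 1 counts. Among the members tested it was the least raised over control, at 1.35 (0.833 to 2.18) in the antibody-alone pool, where it was the one tested member not called, and 3.42 (1.84 to 6.10) in the triple-agent pool. That call was lost with library totals. Pygm, the glycogen phosphorylase of muscle, had 1, 5, 0, 34, 0 and 0 counts, a ratio of 258 (43.3 to 10498) in the triple-agent pool. Mb, myoglobin, the oxygen store, had 1, 5, 0, 12, 0 and 0, and Pgam2, the muscle phosphoglycerate mutase, 0, 3, 0, 16, 0 and 0.

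**Figure D3:**
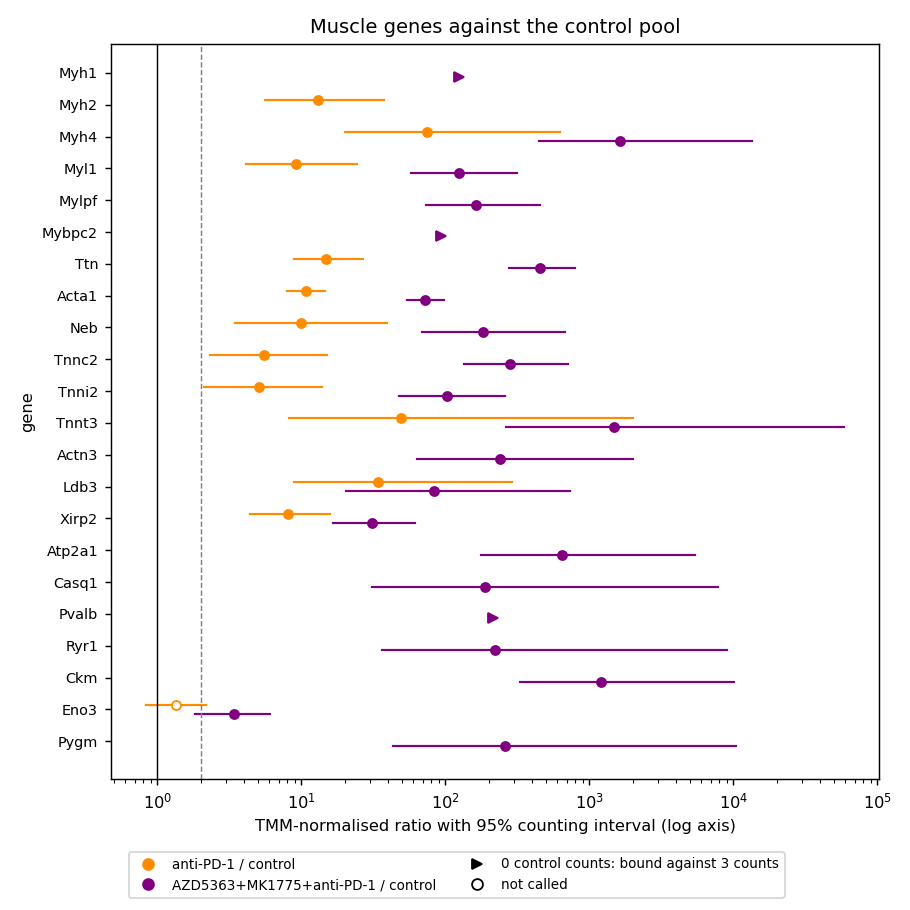
TMM-normalised ratio to the control pool (log axis) for each muscle gene that reached 20 counts in either pool, orange for the antibody-alone pool and purple for the triple-agent pool, with 95% counting intervals. The solid line marks a ratio of 1 and the dashed line 2; Eno3 is the one open (not called) point, at 1.35, and purple points lie to the right of orange ones for each gene with both.

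Within the AZD5363+MK1775 arm, the antibody contrast uses other pools than the contrast in the DMSO arm. The summed muscle counts were 3795 with antibody and 0 without, at least 173-fold higher (against 3 counts). Of 20 muscle genes tested, 15 were called higher and none lower, where 11.1% of the 2793 genes tested were higher and 3.72% lower. All 20 entered through the antibody pool. The bounds were 43.6-fold for Ttn, 22.4-fold for Acta1, 19.6-fold for Myh4 and 14.5-fold for Ckm, while Mybpc2, Ldb3, Casq1, Ryr1 and Pygm had too few counts for a call against a library this shallow. Of the 11 muscle genes called in the DMSO arm, 9 were also called here, which is 81.8% of the first list and 60% of the second. Ldb3 was tested and not called, and Myh2, with 12 counts, was not tested. Over all genes, 19 were called higher in both arms, which is 8.72% of 218 and 6.15% of 309, and 57 of the 218 were tested here.

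Within the KS100 arm the summed ratio of antibody to control IgG was 3.53 (1.97 to 6.54), on 35 and 19 counts, and no muscle gene reached 20 counts in either pool. Titin made up 14 and 8 of these counts and nebulin 6 and 1, while Acta1, Ckm, Tnnc2, Tnni2, Tnnt3 and Atp2a1 were at 0 in both. As a yardstick for these shallow libraries, the 8813 protein-coding genes that had no count in the control and antibody-alone pools were summed, and they held 73.9 and 86.5 counts per Mb of exon in the KS100 and KS100-antibody pools. At these rates the exons of the 34 muscle genes would hold 20.1 and 23.5 counts, where 19 and 35 were seen, and those of Ttn, by far the longest member, 8.64 and 10.1, where 8 and 14 were seen. The same rate would give 12.2 counts in the triple-agent pool, where 3795 were seen, and 1.92 in the kinase-inhibitor pool. By exon length the KS100 pool was thus close to this rate and the KS100-antibody pool above it. Ttn makes up 0.117 of the 0.272 Mb of member exons. These libraries read the last part of each transcript, so a yardstick by exon length is rough for long genes. A rate per gene was not used. Against control the summed ratios were 4.90 (2.88 to 7.88) for KS100 and 17.3 (11.7 to 25.0) for the KS100-antibody pool, the latter 11.4 (6.87 to 18) without Ttn. Between the KS100-antibody and antibody-alone pools, 12 muscle genes could be tested. Ttn, at 5.21 (2.78 to 9.01), and Neb, at 13.2 (4.45 to 32.9), were called higher and Acta1 at least 2.11-fold lower, where 3.33% of the 6959 genes tested were higher and 3.06% lower. The summed ratio of these pools was 1.85 (1.28 to 2.59), and 1.27 (0.878 to 1.77) with library totals.

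The antibody's effect over the 3 arms was tested with edgeR's quasi-likelihood model of arm plus antibody, in which pools of other treatments stand in for replicates, with 2 residual degrees of freedom. Of the 34 muscle genes, 7 passed the low-count filter among 4912 genes, and 4 were called higher at a Benjamini-Hochberg adjusted p under 0.05, where 0.102% of all genes were, or 5 genes. The filter asked for 52.2 CPM in at least 2 pools, and Myh4, Mylpf, Acta1, Neb and Xirp2 reached that level in antibody pools only. They entered through the pools where they were high, so the count of 4 describes these libraries and is no support for an effect. Myh4 rose by a log2 change of 5.76 (SE 1.08, adjusted p = 0.000246 by edgeR), Acta1 by 4.50 (SE 0.985, adjusted p = 0.00593) and Ttn by 4.02 (SE 0.868, adjusted p = 0.00593). Neb rose by 3.78 (SE 0.926, edgeR adjusted p = 0.0322), and the fifth gene was Car3, a carbonic anhydrase of fat and muscle, at 3.74 (adjusted p = 0.0242). Mylpf, Xirp2 and Trdn did not pass, with log2 changes of 3.42, 3.51 and 1.00 and edgeR adjusted p of 0.138, 0.173 and 0.999. All 7 were at 0 in the kinase-inhibitor pool, so these fitted changes depend on the prior count and are rough. Without that pool edgeR called no gene of any kind higher for the antibody, with 17 of 28 muscle genes higher at an unadjusted p under 0.05, and without the triple-agent pool only Ttn of 3 muscle genes was called. DESeq2 called Ttn and Myh4, and edgeR with no low-count filter called Myh4 alone. Neb was not called with library totals, with no filter, with DESeq2 or without any 1 of the 6 pools.

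The same edgeR model gave the inhibitor effects. Trdn, Mylpf and Neb reached 52.2 CPM in inhibitor pools only, so they entered through pools where they were high. The numbers of calls below thus describe these libraries and are no support for an effect. For AZD5363+MK1775, 5 of the 7 muscle genes were called higher, where 1.28% of all genes were: Trdn at a log2 change of 5.71 (SE 1.30), Myh4 at 4.26 (SE 1.11), Mylpf at 4.23 (SE 1.17), Ttn at 4.21 (SE 1.03) and Neb at 3.77 (SE 1.09). This average combines a pool with the most muscle counts and a pool with none. Without the triple-agent pool edgeR called no muscle gene for this effect (0 of 3 at an unadjusted p under 0.05) and the change of Ttn was -5.84. Without the antibody-alone pool it also called none (1 of 12 at an unadjusted p), and without the kinase-inhibitor pool it called 18 of 28. Without the KS100 pool it called 3, and without the KS100-antibody pool 2, none of them among these 5. With all 6 pools DESeq2 called none, with 5 muscle genes higher at an unadjusted p under 0.05 by each tool. For KS100, Trdn, Ttn and Neb were called higher at log2 changes of 6.31 (SE 1.70), 3.56 (SE 1.01) and 3.56 (SE 1.21), where 7.21% of all genes were, on 4, 22 and 7 counts over both KS100 pools. Without the KS100 pool edgeR called none of them (1 muscle gene higher at an unadjusted p under 0.05) and Trdn had a change of -3.43. Without the kinase-inhibitor pool none was called either (5 at an unadjusted p), without the antibody-alone pool none was called higher (1) and Acta1 was called lower, and without the control or the triple-agent pool Ttn alone was called. DESeq2 called the same 3 genes. With library totals edgeR called Trdn and Ttn higher and Acta1 lower, and Neb did not pass (adjusted p = 0.0891). With no filter it called Trdn and Mybpc1, and Ttn and Neb did not pass (edgeR adjusted p = 0.0508 and 0.167). With TMM and the filter Acta1, at -9.60, did not pass (adjusted p = 0.0571 by edgeR).

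The pools with most muscle counts differed in level and in makeup. The summed muscle ratio of the triple-agent pool to the antibody-alone pool was 17.2 (16.1 to 18.4), and 10.4 (9.69 to 11.1) with library totals. Of 22 muscle genes tested, 19 were higher and none lower, where 14.0% of the 7138 genes tested were higher and 8.11% lower, and 12 of the 22 reached the minimum in the antibody-alone pool. The members did not move by 1 common factor. The ratio was 1.16 (0.562 to 2.20) for Myh2, 2.46 (1.40 to 4.19) for Ldb3 and 2.53 (1.35 to 4.59) for Eno3, none of which was called, then 3.83 (2.63 to 5.57) for Xirp2 and 6.69 (5.82 to 7.68) for Acta1. It was 30.6 (25.8 to 36.5) for Ttn, 51.0 (33.7 to 80.2) for Tnnc2, 64.7 (36.8 to 124) for Atp2a1 and 131 (73.8 to 256) for Ckm. The interval of Ckm does not overlap those of Acta1, Ttn, Myh4 or Xirp2, while those of Ttn, Tnnt3, Mylpf, Pygm and Pvalb, all near 30, overlap each other.

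**Figure D4:**
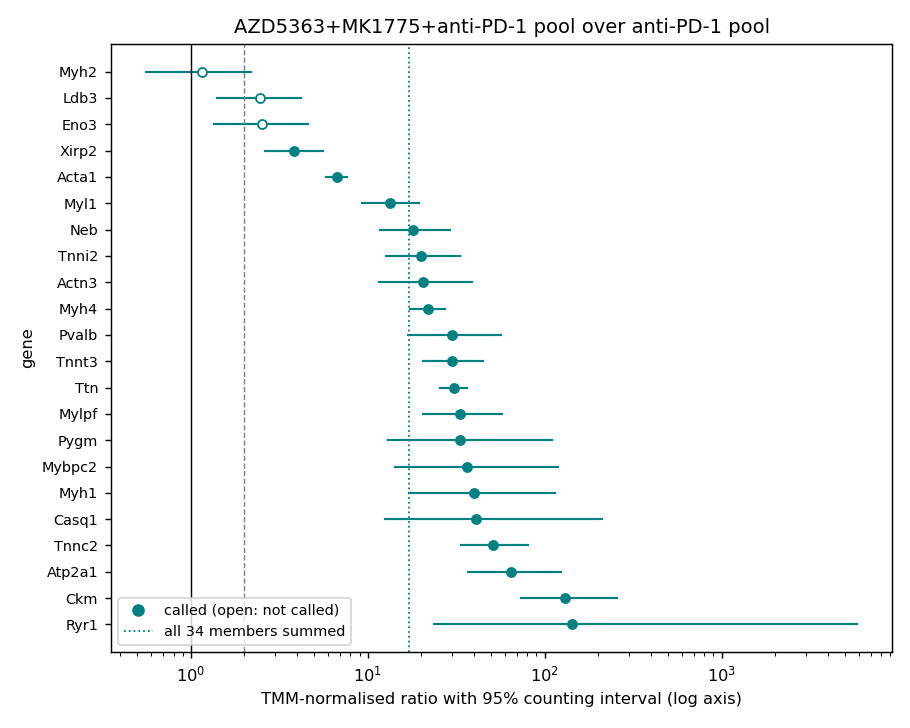
TMM-normalised ratio of the triple-agent pool to the antibody-alone pool (log axis) for the 22 muscle genes tested, sorted, with 95% counting intervals; open points were not called. The dotted line marks the summed ratio of 17.2, the dashed line 2 and the solid line 1, and the genes run from Myh2 at 1.16 to Ckm at 131 and Ryr1 at 143, whose interval is wide on 1 count in the antibody-alone pool.

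Per kb of exon, the order of levels within a pool differed too. In the antibody-alone pool Acta1 stood at 235 CPM per kb, with Tnnc2 next at 31.2, then Myl1 at 20.2, Tnnt3 at 20.2 and Eno3 at 20.1. In the triple-agent pool Tnnc2 (956) and Acta1 (946) led on this scale, followed by Tnnt3 (364), Mylpf (359), Ckm (324) and Pvalb (241). Ckm stood at 4.11 CPM per kb in the antibody-alone pool. These libraries read the last part of each transcript, so dividing by exon length overcorrects long genes such as Ttn (1.32 and 24.2 CPM per kb), and the order is a rough guide.

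By role, thick filament genes made up 20.7% (15.0 to 27.3) of muscle counts in the control pool, 34.6% (31.8 to 37.5) in the antibody-alone pool and 45.8% (44.2 to 47.4) in the triple-agent pool. Thin filament genes made up 39.7%, 43.2% (40.2 to 46.2) and 30.0% (28.5 to 31.4) in these pools. Z disc genes made up 13.7% (11.7 to 15.8) in the antibody-alone pool and 5.01% (4.33 to 5.75) in the triple-agent pool. Calcium genes went the other way, at 3.04% (2.1 to 4.25) and 8.70% (7.82 to 9.64), as did energy genes, at 5.54% (4.25 to 7.07) and 10.5% (9.56 to 11.5). The intervals of these last 2 pools do not overlap for any of the 5 roles, with no replicate behind either. In the control pool energy genes held 24.6% (18.5 to 31.6), 40 of 44 counts being Eno3.

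**Figure D5:**
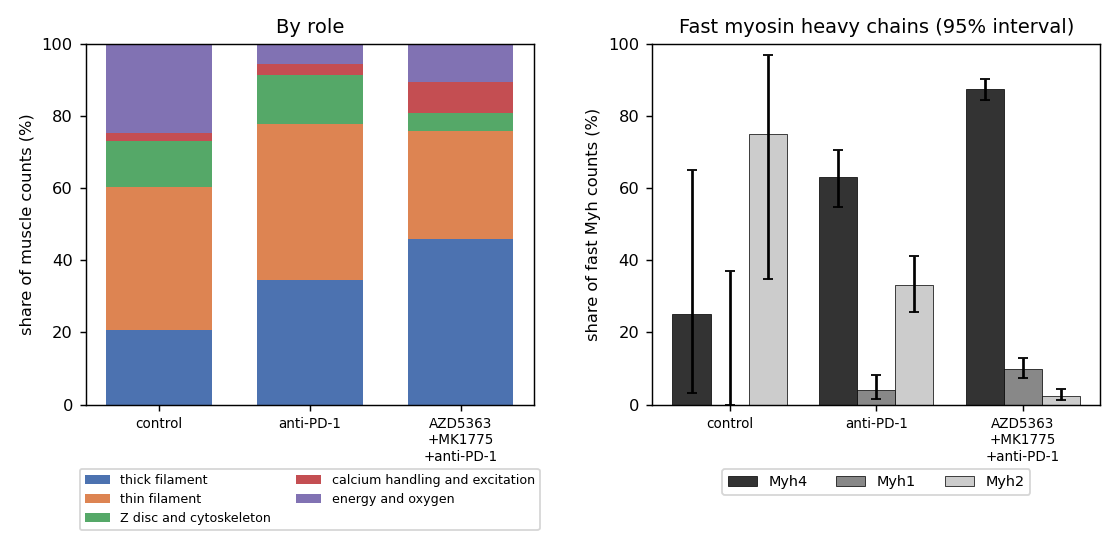
Left, share of muscle counts (%) by role in the 3 pools with over 100 muscle counts. Right, share (%) of each fast myosin heavy chain among Myh1, Myh2 and Myh4 counts in the same pools, with 95% exact binomial intervals; Myh4 holds 63.0% in the antibody-alone pool and 87.6% in the triple-agent pool, and the control bars rest on 8 counts.

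Fast isoforms made up most of the muscle heavy chain and troponin counts in both pools. Fast heavy chains (Myh1, Myh2 and Myh4) made up 98.1% (94.5 to 99.6) of fast plus slow (Myh7) heavy chain counts in the antibody-alone pool and 99.0% (97.7 to 99.7) in the triple-agent pool. Among the fast chains, Myh4 held 63.0% (54.8 to 70.6) in the antibody-alone pool and 87.6% (84.3 to 90.4) in the triple-agent pool, while Myh2 held 33.1% (25.8 to 41.1) and 2.44% (1.27 to 4.23). The antibody-alone pool thus held a larger part of the type IIa chain, on 51 of 154 counts. Fast troponin T (Tnnt3) made up 78.0% (62.4 to 89.4) and 98.0% (94.9 to 99.4) of Tnnt1 plus Tnnt3 counts, and the fast regulatory light chain Mylpf 82.6% (61.2 to 95) and 99.2% (from 95.8) of Mylpf plus Myl2. In the control pool Tnnt3 held 1 of 10 counts and Mylpf 6 of 6. Tnnt1 had 9 counts in control and 9 in the antibody-alone pool. The calcium pump Atp2a1 made up 2.93% (1.57 to 4.97) of Atp2a1 plus Atp2a2 in the antibody-alone pool and 76.0% (69.9 to 81.4) in the triple-agent pool, where Atp2a2 is also the pump of most other cells. In the control pool that share was 0.375% (0.0455 to 1.35), on 2 of 533 counts.

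Of 49 other skeletal muscle genes in the table, 10 reached the minimum between the antibody-alone and control pools and 3 were higher, where 2.69% of all genes tested were. The list's summed ratio, led by a few abundant genes given below, was 1.05 (0.981 to 1.13), against 9.35 for the 34 members. The 3 were Tpm2, a tropomyosin, at 19.3 (4.81 to 168), Fbxo32, a ubiquitin ligase of muscle wasting, at 3.50 (1.86 to 6.92), and Fhl1, a LIM protein, at 30.9 (8.01 to 264), all of which reached the minimum in the antibody-alone pool only. Between the triple-agent and control pools, 6 of 12 were higher, where 14.9% of all genes tested were. The list's summed ratio was 3.36 (3.10 to 3.64), against 161 for the 34 members. The 6 were Tpm2 at 657 (179 to 5469), Tpm1, which many cell types express, at 2.35 (2.06 to 2.68), Myom1, an M line protein, at 152 (39.4 to 1298), Cmya5 at 73.4 (22.8 to 377), and Hrc and Klhl31, each at least 60.8-fold. Fhl1, Myom1, Cmya5, Hrc and Klhl31 were singled out after their values were seen. Fhl1 had 2, 40 and 2 counts in the control, antibody-alone and triple-agent pools, the reverse of Hrc with 0, 0 and 24. Trim63, another ligase of muscle wasting, had 39, 39 and 11 counts. None of the 49 was lower in either comparison. Tpm1, Pgm1 and Gys1 weigh heavily in the list's summed ratios, which thus say little of its other genes. They held 960, 573 and 206 of 2015 counts in control. In the antibody-alone pool they held 532, 360 and 95 of 1372, and in the triple-agent pool 297, 63 and 27 of 892.

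Of the 11 slow fibre genes, Tpm3 and Atp2a2, which most cells express, held 1251 of 1266 counts in control, 767 of 802 in the antibody-alone pool and 253 of 282 in the triple-agent pool. The other 9 held 15, 35 and 29 counts in these pools, or 9.42, 34.9 and 85.7 CPM. The whole list stood at 0.978 (0.894 to 1.07) of control in the antibody-alone pool and at 1.69 (1.48 to 1.93) in the triple-agent pool, where Tpm3, at 2.1 (1.79 to 2.46), was the one of 2 tested genes called higher.

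Of 10 heart genes, Myh6, Nppa, Tnni3 and Myl7 were at 0 in every pool, and the list held 1 to 9 counts per pool. Of 13 genes of satellite cells and myoblasts, Pax7, Myf5, Mymk, Mymx, Chrng and Musk were at 0 in every pool. The list held 14, 18, 0, 14, 3 and 3 counts. Its summed ratio to control was 1.99 (0.933 to 4.31) in the antibody-alone pool and 7.60 (3.36 to 17.2) in the triple-agent pool. Myh8 held 12 of the 14 counts in the triple-agent pool and 0 in control. The 11 smooth muscle and pericyte genes held 557 counts in control, more than the 34 skeletal genes there, 407 in the antibody-alone pool and 81 in the triple-agent pool. Their summed ratio to control was 1.13 (0.991 to 1.28) and 1.10 (0.864 to 1.40) in the latter pools. Mylk alone held 402, 129 and 30 of the counts in the control, antibody-alone and triple-agent pools. The summed ratios thus say little of the other genes in the list. In the antibody-alone pool 5 of the 11 were tested against control. Acta2, smooth muscle actin, was higher at 5.04 (2.97 to 8.92), as were the pericyte genes Pdgfrb at 4.55 (2.62 to 8.25) and Rgs5 at 2.29 (1.73 to 3.04), while Mylk, myosin light chain kinase, was lower at 0.496 (0.403 to 0.606) and Smtn was not called. Cnn1 had 0 counts and Actg2 1 count over all pools.

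Other host cell types moved with muscle in the antibody-alone pool, and not all of them did in the triple-agent pool. The 12 fibroblast and matrix genes stood at 312 CPM in the control pool, 2398 in the antibody-alone pool and 558 in the triple-agent pool (75.1 to 627 in the others). Under TMM scaling this is 7.48 (6.79 to 8.26) and 2.89 (2.43 to 3.43) times control, and 9 of 9 tested were higher than control in the antibody-alone pool, where 2.69% of all genes tested were, Col1a1 at 15.2 (12.4 to 18.7). The 6 erythroid genes stood at 572, 3647 and 65.0 CPM in these pools (78.4 to 300.3 in the others), or 6.20 (5.76 to 6.67) and 0.183 (0.114 to 0.279) times control under TMM scaling, and Hbb-bs, a globin, had 724, 2755 and 3 counts. The 10 fat cell genes stood at 129, 383 and 697 CPM (0 to 588 in the others), with Car3 at 2, 33 and 153 counts and Adipoq, a defining marker, at 1, 3 and 0, and Plin1, Cidec and Lep at 0 in every pool. Under TMM scaling the fat list stood at 2.89 (2.44 to 3.44) and 8.75 (7.22 to 10.6) times control. Car3, a gene of fat and muscle, held 2 of 205, 33 of 384 and 153 of 236 list counts in these pools. The ratio of 8.75 thus rests largely on a gene that muscle shares. The 8 endothelial genes stood at 246, 448 and 142 CPM (75.1 to 392 in the others). Under TMM scaling this is 1.77 (1.55 to 2.04) and 0.933 (0.676 to 1.26) times control. The 10 keratinocyte genes stood at 4.40, 2.99 and 5.91 CPM. In the kinase-inhibitor, KS100 and KS100-antibody pools they stood at 0, 179 and 196 CPM, on 0, 8 and 5 counts. So the antibody-alone pool held more of muscle, matrix and blood transcripts than control, while in the triple-agent pool muscle was higher than in the antibody-alone pool and the matrix list was at 0.387 (0.332 to 0.449) of its level there. The part of these cell types in the muscle values was not tested.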

How the data were processed

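The deposited table holds raw read counts per gene for 6 pools, each sequenced as a single library. Per the labels' protocols, the QuantSeq FWD kit primed mRNA with oligo-dT and kept its 3′ ends, read in 151 cycles. Per the submitters' processing notes, bcl2fastq, HISAT2 2.1.0, HTSeq and GRCm38 were used. For annotation release, strand setting and multimapping the answer is not given in the sources used here, so overlapping and antisense genes cannot be told apart. The 92 spike-ins were all 0 and left out. Symbols, coordinates and exon lengths came from GENCODE M21 (42548 of 43629 genes matched). Counts carry no molecular identifiers.

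The 34 members, the other gene lists and the tests were chosen with earlier results of these data known. The text gives every member, and of each other list the genes with at least 10 counts, at most 8 by count, unless stated. Pools were compared by TMM-scaled ratios with exact conditional (Clopper-Pearson) intervals and no p-values, and a fold against 0 counts is a bound against 3. Arm effects used edgeR 4.0.16 in R 4.3.3 (filterByExpr, quasi-likelihood, Benjamini-Hochberg over 4912 genes), with DESeq2 1.42.0 as an alternative. The SE is the log2 change over the square root of F. The procedures were tested on simulated data. Alternatives were other scalings, minimums, member sets, tools and leaving out each pool.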

Additional observations from a re-analysis of the deposited data

How the results depend on the processing

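No paired analysis was possible because each treatment has 1 library, so groups share fewer than 2 replicate numbers. Of the values compared between pools, no direction turned. Without Acta1, Myh1, Myh2 and Myh4, which have near-identical relatives, the summed ratio was 7.37 for anti-PD-1 against control, 25.3 for KS100+anti-PD-1 against control, a bound of 128 for AZD5363+MK1775+anti-PD-1 against AZD5363+MK1775, 24.4 for it against anti-PD-1, and 3.43 for KS100+anti-PD-1 against anti-PD-1. Without Acta1 alone the last 2 were 22.5 and 2.78, and AZD5363+MK1775+anti-PD-1 against control was 198. Without Ttn, chosen after seeing the data, KS100+anti-PD-1 against control was 11.4. With library totals the summed ratios of AZD5363+MK1775+anti-PD-1 were 99.7 against control, a bound of 99.6 against AZD5363+MK1775 and 10.4 against anti-PD-1, and KS100+anti-PD-1 against anti-PD-1 was 1.27, with an interval reaching below 1. With totals of nuclear protein-coding genes the bound was 126 and the ratio to anti-PD-1 15.5. With TMM over the 2 pools alone, added after seeing the data, AZD5363+MK1775+anti-PD-1 stood at 138 against control and 15.4 against anti-PD-1. The causes were not tested. Shares of counts without Acta1 were 0.00798% (control), 0.0720% (anti-PD-1) and 0.976% (AZD5363+MK1775+anti-PD-1), and of nuclear protein-coding counts 1.73% (AZD5363+MK1775+anti-PD-1) and 0.230% (KS100+anti-PD-1). With a minimum of 10 counts, Ttn alone was called (1 gene) against control in each KS100 pool.

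In the arm effects, antibody calls of muscle genes ranged from 0 to 6 when each pool was left out, AZD5363+MK1775 calls from 0 to 18 and KS100 calls from 0 to 2. Antibody calls were 1 with no filter and 2 with DESeq2, and AZD5363+MK1775 calls were 2 with library totals, 3 with no filter and 0 with DESeq2. KS100 calls were 3 with library totals (Neb lost, Acta1 gained as lower) and 2 with no filter. Leaving out 1 pool also turned single genes. The antibody change of Trdn ranged from -0.15 (without AZD5363+MK1775) to 4.24. The AZD5363+MK1775 changes ranged from -5.84 to 5.16 for Ttn and -3.36 to 4.13 for Neb (lowest without AZD5363+MK1775+anti-PD-1), and from -2.89 (without anti-PD-1) to 5.14 for Mylpf. The KS100 change of Trdn ranged from -3.43 (without KS100) to 9.59. Fewer pools also changed how many genes were tested. Depth limits the shallow pools, where 3 counts exceed 67 CPM.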
